A study of Rattus norvegicus with 6 samples.

Results

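The 9 genes described here encode secreted angiogenic growth factors, which mesenchymal stem cells (MSCs, stromal cells of the bone marrow) release and which act on blood vessels: Vegfa, Vegfb, Vegfc, Vegfd, Pgf, Angpt1, Hgf, Fgf2 and Adm. They were chosen by name, and all 9 were found, each in a single row, among the 33589 rows of the expression table. PolyA RNA was measured in 6 libraries of rat bone marrow MSCs kept for 48 h in a hydrogel that the labels call SA. Soft gel, at 2 kPa, and stiff gel, at 18 kPa, had 3 libraries each, both in low-glucose medium with serum; the series' design text speaks of quadruplicates, and only these 6 libraries were analysed here. The sources used here do not give strain, sex, age or the number of animals, nor whether a replicate is its own culture. The p-values below therefore measure the spread between these libraries only, which may be technical.

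Vessel growth is set by secreted ligands and by the receptors that endothelial cells carry. Vegfa is the main growth and permeability signal for endothelium; Vegfb and Pgf bind the receptor Flt1, and Vegfc and Vegfd act mostly on lymphatic vessels through Flt4. Angpt1 steadies vessels through the receptor Tek, Hgf signals through Met and Fgf2 through the FGF receptors. Adm encodes adrenomedullin, a peptide that relaxes vessels and acts through Calcrl joined to a RAMP protein. Vegfa and Adm are both textbook targets of the hypoxia-inducible factors (HIF), and marrow stromal cells are known as a source of Vegfa, Angpt1 and Hgf.

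In stiff gel Vegfa fell and Adm rose, each by about the same amount on a log scale, while none of the other 7 genes passed the test. Levels are FPKM, fragments counted per length of gene and per size of library, and a gene was called at an adjusted p under 0.05 (limma on log2(FPKM + 1), Benjamini-Hochberg over 12713 genes). Of the 9 genes, 1 was called higher and 1 lower, and 3 had an unadjusted p under 0.05, as did 1960 of the 12713 tested genes (15.4%). Over all tested genes 1.43% were called, 1.01% as higher and 0.425% as lower in stiff gel. The median difference of the 9 was 0.02 on the log2 scale, against 0.0013 for all tested genes. The 3 stiff libraries lay all above or all below the 3 soft ones for 4 of the 9 genes (Vegfa, Vegfb, Angpt1 and Adm) and for 22.6% of tested genes.

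The promoters of the 2 called genes are shown because these genes moved in opposite directions; each window runs from 250 bases before to 50 after the RefSeq start on build GRCr8, 5′ to 3′ on the gene's strand. Vegfa lies at chr9:22452604-22452903 (plus strand) and Adm at chr1:174179950-174180249 (plus strand). Capitals mark the GC box GGGCGG, the core site of Sp1, on either strand.
Vegfa: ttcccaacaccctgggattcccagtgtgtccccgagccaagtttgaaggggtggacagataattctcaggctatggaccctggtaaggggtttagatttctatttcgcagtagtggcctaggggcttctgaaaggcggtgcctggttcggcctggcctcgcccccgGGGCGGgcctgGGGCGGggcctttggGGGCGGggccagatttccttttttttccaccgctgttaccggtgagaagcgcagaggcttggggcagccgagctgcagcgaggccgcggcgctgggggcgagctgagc
Adm: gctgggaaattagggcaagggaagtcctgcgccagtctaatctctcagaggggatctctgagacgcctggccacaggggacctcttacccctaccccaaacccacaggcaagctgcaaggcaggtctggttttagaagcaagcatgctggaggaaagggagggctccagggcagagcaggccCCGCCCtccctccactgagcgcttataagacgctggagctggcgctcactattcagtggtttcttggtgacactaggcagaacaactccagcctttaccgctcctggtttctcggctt
This window was available here for 8 of the 9 genes, all but Angpt1. The Vegfa window had 3 GC boxes and the Adm window 1; Vegfb had 4, Pgf and Vegfc 2 each, and Hgf, Fgf2 and Vegfd none. Of 33469 promoters of the same length, 33.1% held at least 1. The HIF core was searched on both strands as ACGTG (in 19.3% of all promoters) and GCGTG (29.7%), and a match of the first can share its last base with a match of the second. Neither form was in the Vegfa or Adm window, ACGTG was in that of Fgf2, and GCGTG was in those of Vegfb, Fgf2 and Pgf. The search covered this window only, so sites farther from the start were not looked for. The cAMP response element TGACGTCA (in 1.83% of all promoters) and the AP-1 site TGACTCA (4.63%), searched on both strands, were in none of the 8 windows. The TEAD site CATTCC (14.2% of all promoters, both strands) was in the window of Fgf2. The TATA box TATAAA (14.2%, both strands) was in that of Vegfd. Only these exact strings were searched for, so variant forms of a site were not counted. The guanine and cytosine content was 63.3% for Vegfa and 58.0% for Adm, against a median of 51.7% over all promoters.

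Recovered reads came to between 14966354 and 16711527 per library. Vegfa had 15139 to 21590 reads per library, Hgf 3557 to 4774, Adm 720 to 991, Pgf 263 to 314 and Fgf2 only 35 to 45. Soft replicate 1 stood apart, at -20.9 on the first principal component of all tested genes against -8.22 and -7.98 in the other soft libraries and 10.3 to 14.2 in the stiff ones. Results that turn on it are given without it below. Stromal markers were present in every library (Col1a1, Thy1, Pdgfra, Cd44), while Lepr was low, at 0.101 (soft) and 0.143 FPKM (stiff). None of the 9 tested of 10 MSC markers was called by limma, and none with voom. With an unadjusted p under 0.05 there were 2, 22.2% against 15.4% of all tested genes.

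**Figure D1:**
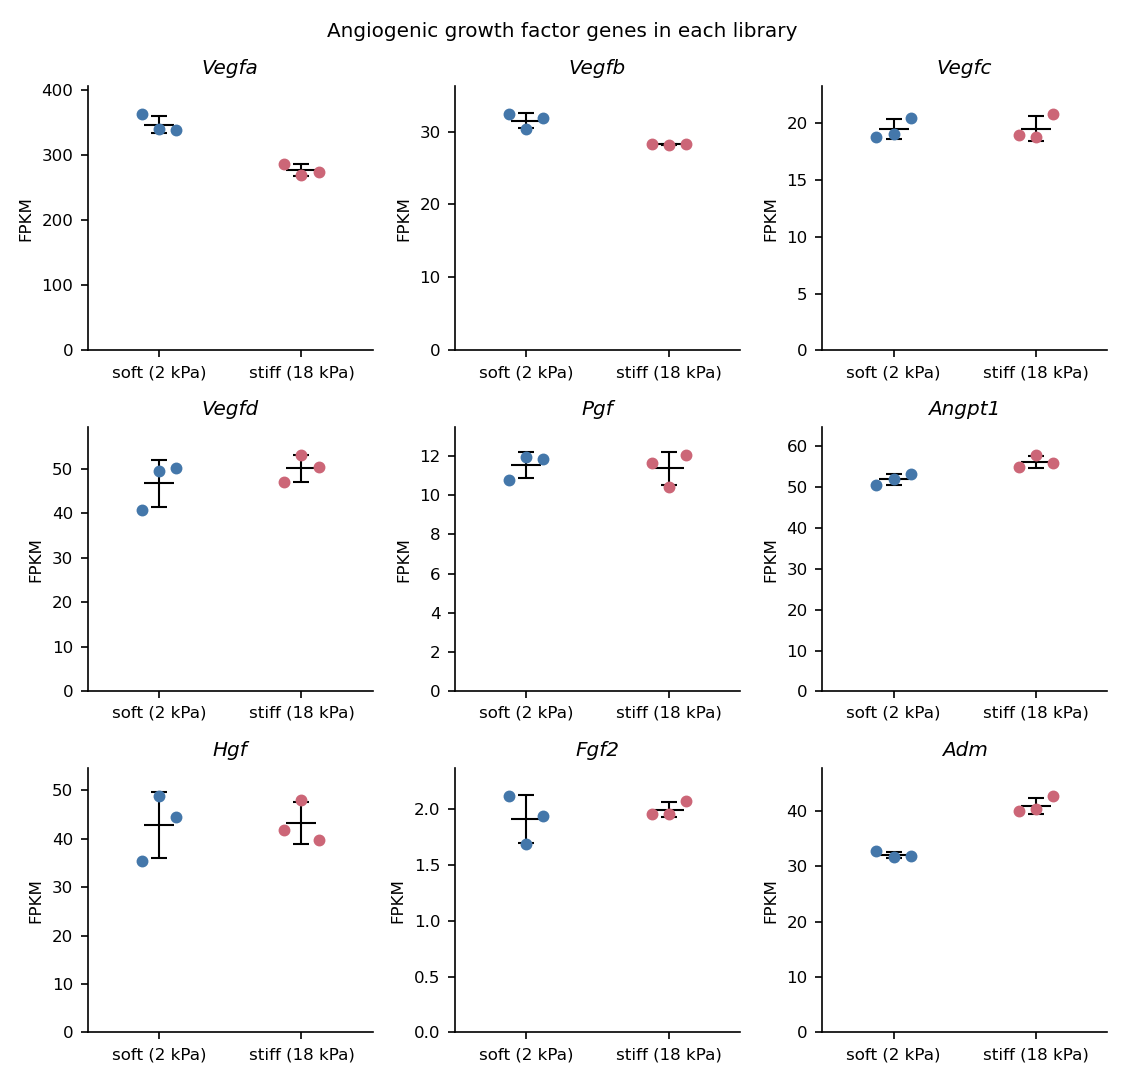
FPKM of each angiogenic growth factor gene (vertical axes, each starting at 0) in the 3 soft (blue) and 3 stiff (red) libraries; points are libraries and bars the mean ± SD. The stiff points lie below the soft ones for Vegfa and Vegfb and above them for Angpt1 and Adm; in the other 5 panels the groups overlap.

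Vegfa (ENSRNOG00000019598) was at 362.7, 340.2 and 338.2 FPKM in soft replicates 1 to 3 and at 286.6, 269.0 and 274.4 FPKM in stiff replicates 1 to 3. Every stiff library lay below every soft one, and soft replicate 1 was the highest of the 6. The mean fell by 20.3%, from 347.0 ± 13.6 to 276.7 ± 9.01 FPKM (SD, n = 3 per group), a log2 difference of -0.33 (SE 0.0506, 95% interval -0.44 to -0.21, limma adjusted p = 0.0325). The table places the gene on chromosome 9 from 17340341 to 17355681, plus strand, in a build that it does not name. Vegfa is spliced into several forms, which a gene-level value does not separate. Without soft replicate 1 the difference was -0.29 and still called (adjusted p = 0.0462). Leaving out soft replicate 2 or 3 or stiff replicate 1, 2 or 3 ended the call, with adjusted p of 0.104, 0.124, 0.0938, 0.109 and 0.133, at log2 differences of -0.31 to -0.35. The call was also lost with no filter on level (0.0757) and with no intensity trend in the variance (0.0890).

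Vegfb (ENSRNOG00000021156), which like Pgf binds Flt1, was at 32.4, 30.3 and 31.8 FPKM in soft and 28.2, 28.1 and 28.3 FPKM in stiff gel. The stiff values lay close together and under all soft ones. The mean went from 31.5 ± 1.06 to 28.2 ± 0.10 FPKM (n = 3 each), a log2 difference of -0.15 (95% interval -0.27 to -0.03), which limma did not call (adjusted p = 0.230, unadjusted 0.0213).

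Vegfc (ENSRNOG00000011416), a lymphatic growth factor, was at 18.8, 19.1 and 20.5 FPKM in soft and 19.0, 18.8 and 20.8 FPKM in stiff gel. The groups overlapped throughout, and the log2 difference was 0.0039 with an interval of -0.15 to 0.16 (adjusted p = 0.988, limma). Vegfd (ENSRNOG00000003587), the other lymphatic ligand, was at 40.7, 49.5 and 50.1 FPKM in soft and 47.1, 53.1 and 50.5 FPKM in stiff gel. Soft replicate 1 was the lowest library for Vegfd, and the log2 difference of 0.10 (-0.11 to 0.32, limma adjusted p = 0.644) came to 0.0086 without it. Pgf (ENSRNOG00000005650), placenta growth factor, was at 10.8, 11.9 and 11.9 FPKM in soft and 11.6, 10.4 and 12 FPKM in stiff gel. Its groups overlapped, with a log2 difference of -0.02 (-0.20 to 0.16, limma adjusted p = 0.937).

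Summed over the family, VEGF transcripts were lower in stiff gel, and in the deposited FPKM the sum without Vegfa was level. Vegfa, Vegfb, Vegfc, Vegfd and Pgf added up to 465.4, 451.0 and 452.5 FPKM in soft and 392.5, 379.5 and 386.0 FPKM in stiff gel. The family mean was 456.3 ± 7.89 in soft and 386.0 ± 6.54 FPKM in stiff gel, whereas the sum without Vegfa was 109.3 ± 5.98 and 109.3 ± 3.0 FPKM. Within that remainder the mean of Vegfb went from 31.5 to 28.2 FPKM and that of Vegfd from 46.8 to 50.2 FPKM, neither called. Vegfa made up 76.0% ± 1.69 of the family's FPKM in soft and 71.7% ± 1.17 in stiff gel, and Vegfd 10.3% ± 1.32 and 13.0% ± 1.000. These are sums over genes per length, described with no test. With each library scaled to the same FPKM sum, a choice made after seeing the data, the family mean was 464.3 and 379.5 FPKM. At that scaling the log2 differences were -0.20 for Vegfb, -0.043 for Vegfc, 0.055 for Vegfd and -0.065 for Pgf, none called by limma. The level sum without Vegfa therefore holds for the deposited scaling only.

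**Figure D2:**
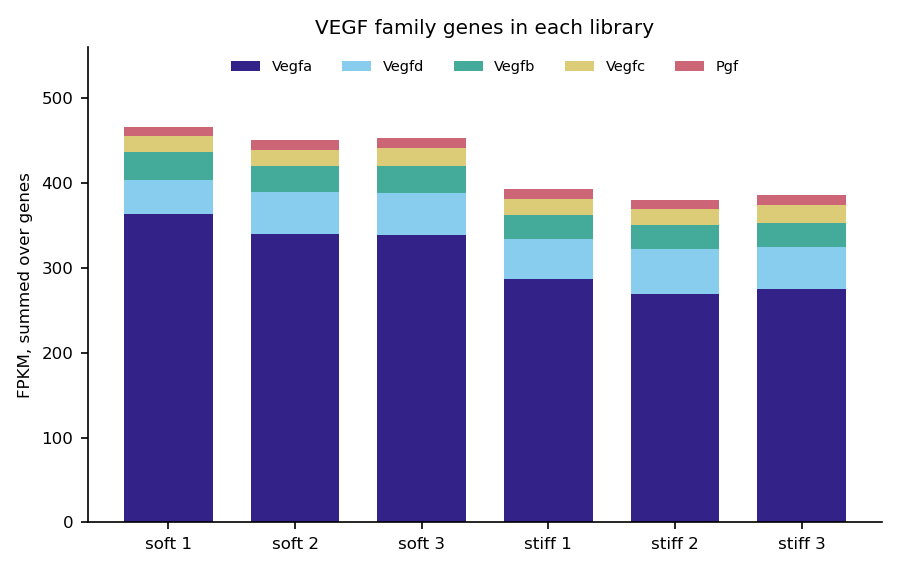
FPKM of the 5 VEGF family genes (vertical axis, from 0), stacked, in each of the 6 libraries. Vegfa is the largest block in every library, and the stack is 451.0 to 465.4 FPKM in soft and 379.5 to 392.5 FPKM in stiff gel.

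Angpt1 (ENSRNOG00000005854), the ligand of Tek, was at 50.4, 51.9 and 53.2 FPKM in soft and 54.8, 57.7 and 55.8 FPKM in stiff gel. All stiff libraries lay above all soft ones by a small margin. The means were 51.8 ± 1.38 and 56.1 ± 1.49 FPKM, a log2 difference of 0.11 (-0.0057 to 0.23) that limma did not call (adjusted p = 0.347). With equal FPKM sums it was 0.06, where the median of all tested genes was -0.042.

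Hgf (ENSRNOG00000007027), hepatocyte growth factor, was at 35.4, 48.7 and 44.6 FPKM in soft and 41.8, 48.1 and 39.8 FPKM in stiff gel. It was the most variable of the 9 relative to its mean, with coefficients of variation of 15.8% in soft and 10.0% in stiff gel. Its log2 difference was 0.02 with an interval of -0.27 to 0.31 (limma adjusted p = 0.968), and -0.11 without soft replicate 1, its lowest library. Fgf2 (ENSRNOG00000017392), basic fibroblast growth factor, was at 2.11, 1.68 and 1.94 FPKM in soft and 1.96, 1.95 and 2.07 FPKM in stiff gel. The groups overlapped (log2 difference 0.04, -0.21 to 0.30, limma adjusted p = 0.898), and log2(FPKM + 1) compresses changes at such a low level. Fgf2 overlaps Nudt6, on the opposite strand, by 375 bases, and the sources used here do not say how strand was handled, so its level is uncertain.

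Adm (ENSRNOG00000027030) was at 32.7, 31.8 and 31.9 FPKM in soft and 40.0, 40.3 and 42.7 FPKM in stiff gel. Every stiff library lay above every soft one, and the soft values were close together. The mean rose by 27.6%, from 32.1 ± 0.517 to 41.0 ± 1.47 FPKM (SD, n = 3 per group), a log2 difference of 0.34 (SE 0.0525, 95% interval 0.22 to 0.46, limma adjusted p = 0.0317). The table places it on chromosome 1 from 175445088 to 175447259, plus strand, in the same unnamed build. Without soft replicate 1 Adm was still called (0.35, adjusted p = 0.0404). Without soft replicate 2 or 3 or stiff replicate 1, 2 or 3 it was not, with adjusted p of 0.118, 0.152, 0.115, 0.0976 and 0.128, at log2 differences of 0.31 to 0.36; with no variance trend it was 0.0682.

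**Figure D3:**
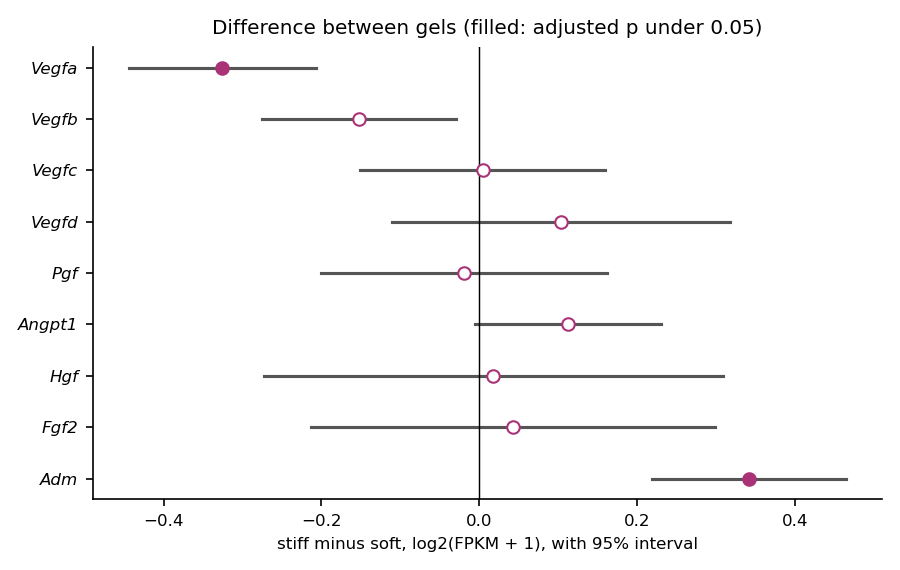
Stiff minus soft difference on log2(FPKM + 1) (horizontal axis) for each of the 9 genes, with limma's 95% interval; filled points had an adjusted p under 0.05. Vegfa (-0.33) and Adm (0.34) are the filled points; the intervals of the other 7 include 0 except that of Vegfb (-0.27 to -0.03).

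Because Vegfa fell and Adm rose, their ratio within a library had to change by more than either gene alone. The ratio of Vegfa to Adm, in which a library's scaling cancels, was 11.1, 10.7 and 10.6 in soft and 7.17, 6.67 and 6.43 in stiff gel. Its mean went from 10.8 ± 0.253 to 6.76 ± 0.377 (n = 3 each), and the groups did not overlap. The ratio was formed after both changes were known and is a description; with 3 against 3 libraries an exact two-sided permutation test cannot go below 0.1. The ratio of Vegfa to Angpt1 went from 6.70 ± 0.436 to 4.94 ± 0.285.

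By level, Vegfa was far above the rest, at a mean of 311.8 FPKM over the 6 libraries, 5.78 times the next gene. Angpt1 (54.0), Vegfd (48.5), Hgf (43.1), Adm (36.6) and Vegfb (29.9) followed, then Vegfc (19.5), Pgf (11.4) and Fgf2 (1.95 FPKM). Neighbours from Angpt1 to Vegfb had overlapping ranges, although each pair kept its order within every library except Hgf and Adm, which were reversed in 1 stiff library. From Vegfb down, no gene overlapped with the one below it, and Vegfa did not overlap with Angpt1. FPKM divides by the length of a gene model, so an order between genes also rests on those models.

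The genes whose pattern over the 6 libraries was most like Vegfa, by Pearson correlation of log2(FPKM + 1) among genes at 5 FPKM or more, were Adamts15 (0.996), a secreted metalloproteinase, Plcg1 (0.996), a phospholipase that acts below growth factor receptors, and Olfml2b (0.996), a secreted matrix protein. For Adm they were Rasl12 (0.998), Actg2 (0.997), an actin of smooth muscle, and Fam136a (0.996). With 6 libraries in 2 groups many genes come this close: 113 of 8881 others had a correlation of at least 0.95 with Vegfa, and 179 with Adm. Since they were picked by likeness to a called gene over the same libraries, a difference between gels was part of the choice. By limma Plcg1 (adjusted p = 0.201) and Fam136a (0.142) were not called, and Olfml2b (0.0374) and Actg2 (0.00833) were. Olfml2b lost its call without any 1 library (0.0547 to 0.162). Adamts15 went from 13.7 to 9.25 FPKM (log2 difference -0.52, limma adjusted p = 0.0350) and Rasl12 from 33.8 to 43.6 FPKM (0.36, adjusted p = 0.0232). Adamts15 was not called without any 1 of the 6 libraries (adjusted p of 0.0589 to 0.133), and Rasl12 was called only without soft replicate 1 (0.0802 to 0.12 without each of the other 5). With no variance trend both were lost (0.0554 and 0.0537), and with no level filter Adamts15 was too (0.0818).

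On the receptor side, 11 of 18 listed receptors and co-receptors passed the level filter of a mean of 1 FPKM. Limma called 2 of them, both higher in stiff gel, 18.2% against 1.43% of all tested genes. With an unadjusted p under 0.05 there were 4, 36.4% against 15.4%. Ramp3, which joins Calcrl to make an adrenomedullin receptor, was at 85.2, 78.6 and 80.4 FPKM in soft and 109.4, 106.2 and 112.5 FPKM in stiff gel. All stiff libraries lay above all soft ones, a rise of 34.3% (log2 difference 0.42, SE 0.0527, adjusted p = 0.0154, limma). Ackr3, an atypical receptor that takes up adrenomedullin and Cxcl12, was at 9.45, 9.11 and 10.2 FPKM in soft and 13.8, 12.9 and 12.7 FPKM in stiff gel. Its groups also did not overlap (log2 difference 0.42, SE 0.0695, adjusted p = 0.0406, limma).

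Ramp3 was called without soft replicate 1 but not without any 1 of the other 5 libraries (adjusted p of 0.0552 to 0.0979), and Ackr3 in none of these 6 fits (0.0759 to 0.163). Ackr3 was not called either with no level filter (0.0806), equal FPKM sums (0.0661) or no variance trend (0.0624). Calcrl, the receptor partner itself, was at 2.61, 3.60 and 3.36 FPKM in soft and 3.33, 3.59 and 3.01 FPKM in stiff gel, with overlapping groups (log2 difference 0.05, -0.23 to 0.33, limma adjusted p = 0.898). Ramp2, the other adrenomedullin partner, was at 9.64 ± 2.40 and 9.38 ± 0.975 FPKM (adjusted p = 0.984, limma), on 95 to 160 reads per library. Pam, the enzyme that amidates adrenomedullin, was at 69.3 ± 2.26 and 72.5 ± 1.00 FPKM (adjusted p = 0.576, limma). Ramp1 was under the filter, with 1 to 8 reads per library.

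**Figure D4:**
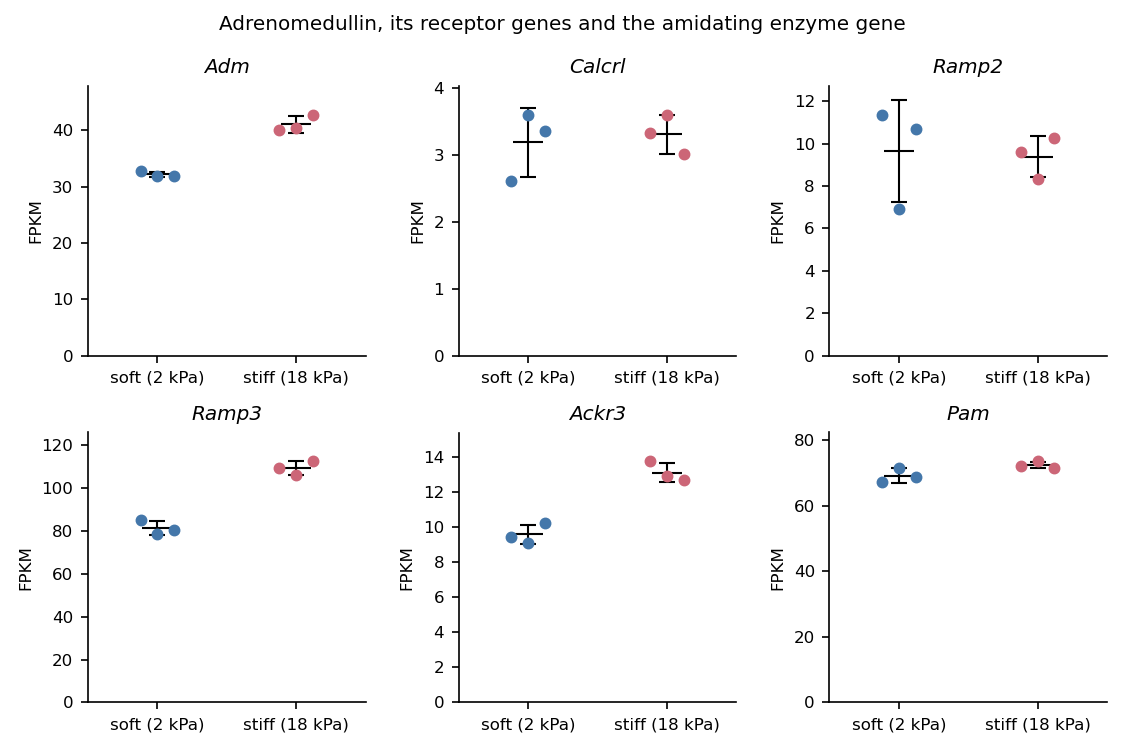
FPKM (vertical axes, each from 0) of Adm, 4 receptor genes for adrenomedullin and Pam in the 3 soft (blue) and 3 stiff (red) libraries; points are libraries and bars the mean ± SD. Stiff points lie above soft ones for Adm, Ramp3 and Ackr3 and overlap them for Calcrl, Ramp2 and Pam.

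The VEGF receptors of endothelium were all under the level filter. Flt1 had 13 reads over all 6 libraries, Kdr 8, and Tek, the Angpt1 receptor, 96. Flt4, the receptor of Vegfc and Vegfd, had 216 reads, 30 to 45 per library, at 0.393 FPKM (soft) and 0.384 FPKM (stiff). The co-receptors were present: Nrp2, which binds Vegfc, was at 78.9 ± 1.10 and 86.3 ± 5.09 FPKM (adjusted p = 0.347, limma) and Nrp1, which binds Vegfa, at 23.0 ± 1.02 and 22.4 ± 1.19 FPKM (adjusted p = 0.827). Met, the Hgf receptor, was at 4.63 ± 0.470 and 3.63 ± 0.495 FPKM and Fgfr1 at 140.2 ± 10.7 and 124.2 ± 5.04 FPKM, with log2 differences of -0.28 and -0.17 that were not called (adjusted p = 0.298 and 0.288, limma). Of the 11 receptors 5 had a difference above 0, and the median was -0.01 (0.0027 after quantile normalization).

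Among 19 tested of 22 other angiogenic ligands limma called 1, 5.26% against 1.43% of all tested genes. With an unadjusted p under 0.05 there were 8, 42.1% against 15.4%. Hbegf, a heparin-binding ligand of the EGF receptor, was at 7.29, 6.75 and 8.03 FPKM in soft and 10.4, 10.0 and 11.3 FPKM in stiff gel (log2 difference 0.47, SE 0.0831, adjusted p = 0.0472, limma). Its groups did not overlap, but the call held in no fit that left out a library (0.0904 to 0.177) and was lost with no level filter (0.105), equal FPKM sums (0.0641), quantile normalization (0.0502), no variance trend (0.0682) and the length trend removed (0.0508). The list's median was 0.10, with 14 of 19 above 0 (0.05 and 12 of 19 with equal FPKM sums). The median of all tested genes was 0.0013, and -0.042 with equal FPKM sums. Quantile normalization gave 0 higher and 1 lower call in this list, and voom 1 of each. Over all 12713 tested genes these fits gave 103 higher and 68 lower calls, and 190 higher and 127 lower.

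Among 17 tested of 19 angiogenesis inhibitors and feedback genes limma called 4, all higher in stiff gel, and voom 4 higher and 1 lower. Over all 12713 tested genes voom called 190 higher and 127 lower. The limma calls were 23.5% of the list against 1.43% of all tested genes. With an unadjusted p under 0.05 there were 8, 47.1% against 15.4%, in a list written with earlier results known. Thbs1, thrombospondin 1, went from 598.3 ± 15.9 to 965.9 ± 51.2 FPKM (log2 difference 0.69, adjusted p = 0.00327, limma) and was called in all 6 fits that left out a library. Adamts1, a secreted protease that also binds VEGF, was at 50.5, 50.8 and 50.7 FPKM in soft and 73.4, 73.8 and 67.0 FPKM in stiff gel, a rise of 40.9% (log2 difference 0.49, adjusted p = 0.0114, limma). It was called without soft replicate 1 and without stiff replicate 3, and reached 0.0552 to 0.0736 without each of the other 4 libraries. Thbs2 (0.32) and the Wnt antagonist Sfrp1 (0.40) were called without soft replicate 1 and lost without each of the other 5, with adjusted p of 0.0723 to 0.12 and 0.0665 to 0.0880. With no variance trend they were at 0.0734 and 0.0511, and with no level filter Thbs2 was at 0.104. Not all inhibitors were higher: Timp3, which blocks VEGF receptor binding, was at 32.1 ± 1.04 FPKM (soft) and 21.9 ± 3.72 FPKM (stiff) (adjusted p = 0.0784, limma, not called), named after its value was seen. The list's median was 0.10 with 11 of 17 above 0, and 0.05 with 9 of 17 at equal FPKM sums. At that scaling the median of all tested genes was -0.042.

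None of 18 tested of 26 listed processing enzymes and ligand-binding proteoglycans was called by limma, and none with voom. With an unadjusted p under 0.05 there were 4, 22.2% against 15.4% of all tested genes. Sdc4, a syndecan that holds Fgf2, was at 332.0 ± 10.2 and 375.4 ± 15.5 FPKM (adjusted p = 0.172, limma) and Gpc1, a glypican, at 236.7 ± 25.9 and 234.9 ± 10.4 FPKM (0.986). The median was -0.02 with 5 of 18 above 0, and 8 of 18 once the trend with gene length was removed.

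None of 11 tested HIF subunits and regulators was called by limma. With an unadjusted p under 0.05 there were 2, 18.2% against 15.4% of all tested genes. Voom called 1 of the 11, and 317 of all 12713 tested genes. Hif1a was at 202.0 ± 23.0 and 207.6 ± 15.1 FPKM (adjusted p = 0.877, limma) and Egln1, the oxygen-sensing hydroxylase, at 130.7 ± 6.38 and 139.5 ± 3.22 FPKM (0.456). The 2 with an unadjusted p under 0.05, named after their values were seen, moved in opposite directions. Cited2 was at 76.2 ± 4.02 and 95.4 ± 3.81 FPKM (adjusted p = 0.0530, limma) and Arnt at 25.6 ± 0.327 and 22.7 ± 0.916 FPKM (0.222). Of 36 tested HIF targets other than Vegfa and Adm, limma called 1 higher and 1 lower, 5.56% against 1.43% of all tested genes. With an unadjusted p under 0.05 there were 12, 33.3% against 15.4%. The lower was Ndrg1, from 98.9 ± 1.63 to 82.6 ± 1.45 FPKM (log2 difference -0.26, adjusted p = 0.0472, limma), which was called in no fit that left out a library (0.0602 to 0.210), nor with no level filter (0.0509), no variance trend (0.111) or the length trend removed (0.0549). The list's median was 0.05 with 22 of 36 above 0, and -0.00042 with 18 of 36 at equal FPKM sums. That scaling moved the median of all tested genes from 0.0013 to -0.042.

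**Figure D5:**
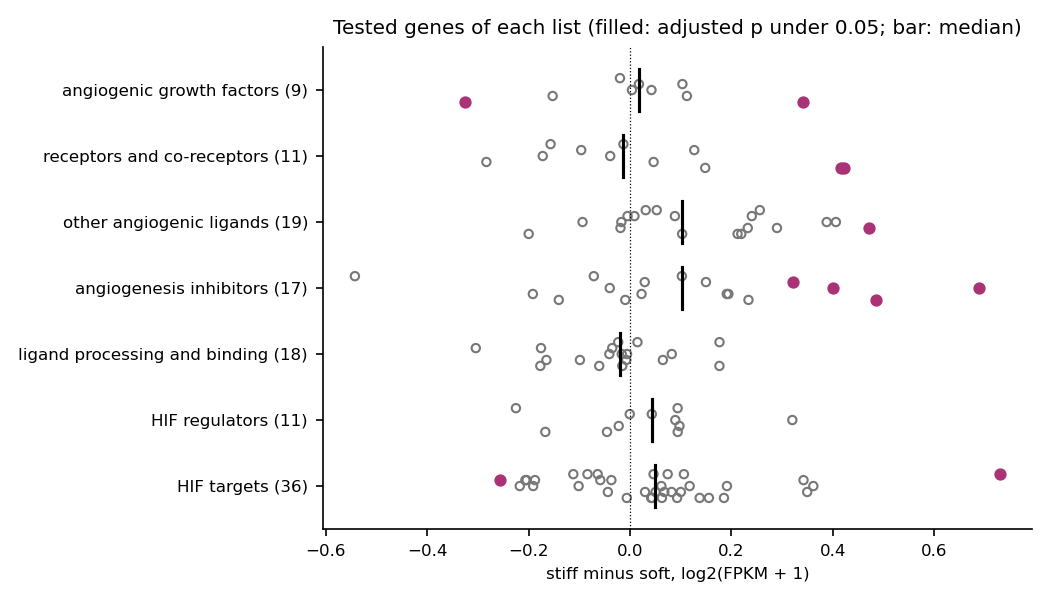
Stiff minus soft difference on log2(FPKM + 1) (horizontal axis) of every tested gene in the angiogenic growth factors and 6 related lists, with the number tested in brackets; filled points had an adjusted p under 0.05 and bars mark medians. Medians lie between -0.02 and 0.10, and filled points are in 5 of the 7 lists.

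Markers of other cells were measured beside these changes, and their part in them was not tested. In bulk RNA, fewer cells of a type and less RNA per cell cannot be told apart. Of 10 macrophage and leukocyte markers 9 were in the table and tested. Limma called 3, 33.3% against 1.43% of all tested genes. With an unadjusted p under 0.05 there were 4, 44.4% against 15.4%. Cd68 (log2 difference -0.53, limma adjusted p = 0.0246) and Cd53 (-0.56, 0.0271) fell and Adgre1 rose (0.30, 0.0404). The median of the 9 was -0.11, against 0.0013 for all tested genes. The summed level of the 9 was 269.7 to 272.7 FPKM in soft and 254.5 to 267.8 FPKM in stiff gel. Cd68 and Cd53 were called without soft replicate 1 and lost without each of the other 5 libraries (adjusted p of 0.0665 to 0.119 and 0.0708 to 0.122), and Adgre1 was lost without any 1 of the 6 (0.0610 to 0.164), at equal FPKM sums (0.0752) and on quantile-normalized values (0.0870). With no level filter none of the 3 was called (0.0664, 0.0705 and 0.0522), and with no variance trend Cd68 (0.0535) and Adgre1 (0.0961) were not. Of 9 endothelial markers in the table, Cldn5 and Robo4 were listed at 0 in all libraries, Cdh5 was at 0.0101 and 0.0102 FPKM, and the summed level was 9.17 to 10.8 FPKM in soft and 9.28 to 12.5 FPKM in stiff gel, nearly all from Egfl7 and Esam. Of 7 pericyte markers Rgs5 was listed at 0, the rest summed to 25.1 to 26.8 and 24.8 to 25.8 FPKM, and none of 6 tested was called (limma; none at an unadjusted p under 0.05, none with voom), the most abundant being Cspg4 (10.4 FPKM in both groups) and Abcc9 (6.86 and 6.03 FPKM).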

How the data were processed

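The authors deposited FPKM per gene, with gene length, for 6 libraries. Per the submitters' processing notes, the tools were Cufflinks 2.1.1, Bowtie 0.12.9 and HTSeq and the builds the mouse mm10 and GRCm38, although the table carries rat identifiers and names no build. How strand and multiple mapping were handled is not given there. Multiplied by gene length, 100% of the FPKM values came out as whole reads (tolerance 0.001); these reads gave the depth and the input of voom. Stiff was compared with soft on log2(FPKM + 1) for the 12713 genes whose mean was 1 FPKM or more, in limma 3.58.1 (R 4.3.3). The model held group alone, with a variance trend, two-sided p and Benjamini-Hochberg adjustment over all these genes (threshold 0.05). The fit was tested on simulated reads with known changes. Fold values are ratios of mean FPKM, since log2(FPKM + 1) understates changes of low genes.

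The 9 genes and the lists were chosen with earlier results of these data known. Named genes were the 9, up to 4 called genes per list by p (with none called, the 2 most abundant), and the 3 genes most like each called gene. One further called gene is not reported here. Of the listed names, Ang, Ccbe1, Hspg2, Ep300, Pecam1 and Itgam had no row under that name. Alternatives changed the pseudocount, filter, scaling, variance model, weights, threshold, block, length trend and libraries. Libraries of the same group differed beyond sampling noise (chi-square per degree of freedom of 3.57 or more).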

Additional observations from a re-analysis of the deposited data

How the results depend on the processing

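Vegfa was lower and Adm higher in stiff gel in all 18 alternatives, at log2 differences of -0.28 to -0.40 and 0.29 to 0.36, but each was called in only 11 of them. The filter, variance trend, block and threshold leave these differences unchanged. Since the groups did not overlap, another pseudocount or a left-out library cannot reverse the direction. The 18 are therefore not separate checks of direction, and the 11 include the main fit itself, listed under the threshold of 0.1. The number of the 9 genes called went from 2 to 1 with no level filter, to 1 with the replicate number as a block and to 0 with no variance trend, and was 0 to 2 when a library was left out. The 182 calls over all genes became 92 with no level filter, 112 with no variance trend, 685 with array weights, 382 at a threshold of 0.1, 105 with the replicate block and 317 with voom, and 27 to 159 when a library was left out. Their share of higher calls was 70.3%, with 128 higher and 54 lower, against 56.4% with equal FPKM sums (88 and 68), 60.2% with quantile normalization (103 and 68) and 190 against 127 calls with voom. The 9 calls of the 6 related lists became 5 with no level filter, 4 with no variance trend, 21 with array weights, 14 at a threshold of 0.1 and 14 with voom, and 2 to 7 when a library was left out. The replicate numbers were not shown to pair the libraries, since the correlations of deviations between same-numbered libraries were 0.06, 0.12 and -0.08; under the replicate block Vegfa was called (adjusted p = 0.0460) and Adm was not (0.0686), nor were Ackr3 (0.0822), Hbegf (0.0550), Ndrg1 (0.0836), Rasl12 (0.0564), Cd68 (0.0680), Cd53 (0.0573) and Adgre1 (0.0792).

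Direction changed only for genes that were not called. With equal FPKM sums, quantile normalization and array weights the differences were -0.043, -0.0055 and -0.044 for Vegfc, -0.031, -0.010 and -0.071 for Hgf and -0.0061, -0.00032 and -0.037 for Hif1a. Vegfc was at -0.011 with voom and -0.0085 with the length trend removed, Vegfd at -0.0013 with array weights, Gpc1 at 0.058 with array weights and 0.010 with the length trend removed, and Cspg4 at -0.040 with equal FPKM sums and -0.011 with voom. When a library was left out the ranges were -0.040 to 0.039 for Vegfc, -0.11 to 0.11 for Hgf, -0.015 to 0.092 for Fgf2, -0.064 to 0.035 for Pgf, -0.068 to 0.080 for Gpc1, -0.053 to 0.11 for Hif1a and -0.036 to 0.056 for Cspg4. The causes were not tested. Fgf2 had the fewest reads, 35 to 45 per library, and Hgf, with 3557 to 4774, the widest interval. These intervals are on log2(FPKM + 1), which compresses the spread of a gene as low as Fgf2, so they do not compare the precision of the 2 genes.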
